A study of Homo sapiens with 6 samples.

Results

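Topologically associating domains (TADs) are stretches of a chromosome whose parts contact each other more often than they contact the neighbouring stretch, and the places where such domains meet or end are TAD boundaries. Many boundaries hold bound CTCF, a zinc finger protein that stops the loop-extruding cohesin complex, and others lie at the starts of active genes. The boundaries described here are those of LNCaP prostate cancer cells that were present in the TAD list made after CTCF siRNA and were absent from the control list. Facing edges of consecutive TADs at most 100 kb apart were joined into 1 boundary, any other edge was a boundary of its own, and a CTCF siRNA boundary was called gained where no control boundary lay within 40 kb. On the autosomes 1019 of the 2783 CTCF siRNA boundaries were gained, which is 36.6% (Wilson 95% interval 34.8 to 38.4%). The other 1764 were maintained, and 1569 of the 3337 control boundaries had no CTCF siRNA boundary within that distance and were called lost.

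Chromatin contacts were measured by Hi-C: nuclear DNA is fixed in place, cut (here with BglII) and religated, and each read pair that spans a ligation counts as 1 contact between 2 places. Cells of LNCaP, an established line from a prostate carcinoma, received 20 nM of a pool of non-targeting siRNAs (control, 2 libraries) or of a pool of siRNAs against CTCF (4 libraries) and was collected after 144 h, with a second transfection on the way. The authors pooled the libraries of each condition into 1 contact map of 40 kb bins and 1 TAD list on hg19. There is therefore no separate map or TAD list for any replicate of either condition. The gained boundaries were chosen by TAD calls made from these same maps, so every map value below is a description with no test.

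The maps held 26174664 read pairs in control and 87657779 in CTCF siRNA, of which 13665315 and 56304120 joined places on the same chromosome. No contact was listed before position 9400001 of any chromosome, where 67 of the gained boundaries lay, and 897 of the 1019 had enough usable bins around them in both maps for an insulation value. The remaining 122 are described by position, genes and sequence only. The depth of the maps also differed with base composition. At the eligible bins of the lowest GC tertile the CTCF siRNA map held 2.30 times as many contacts within the chromosome as the control map, at the median, and at those of the highest tertile 6.11 times as many. Eligible bins here are the 55898 autosomal bins over 40 kb from every control boundary and between the first and last control boundary of their chromosome, a range that 16 of the 1019 gained boundaries lay outside.

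The sequences of the siRNA pool, as the labels give them, are shown because they define the treated condition. They are written 5′ to 3′.
CTCF siRNA 1: gaugaagacugaaguaaug
CTCF siRNA 2: ggagaaagaagaagagua
CTCF siRNA 3: gaagaugccugccacuuac
CTCF siRNA 4: gaacagcccauaaacauag
siRNAs 1, 3 and 4 matched the sense strand of the CTCF gene on GRCh37 at chr16:67644951-67644969, chr16:67644838-67644856 and chr16:67645048-67645066, all within coding sequence of exon 3, and each was found in 9 of 10 annotated protein-coding CTCF transcripts. siRNA 2 is given with 18 bases, and as given it matched none of these transcripts.

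Of the gained boundaries, 544 were joined edges, the place where a TAD ends and the next begins, 250 were lone TAD ends and 225 were lone TAD starts. Of all joined CTCF siRNA boundaries 29.7% were gained (27.6 to 31.8%, 1833 boundaries), and of the 950 lone edges 475 were (46.8 to 53.2%). By chromosome the gained share ran from 23.4% on chromosome 17 (25 of 107, 16.4 to 32.2%) to 43.2% on chromosome 22 (19 of 44, 29.7 to 57.8%). The interval of chromosome 17 lay below those of chromosomes 2, 3, 4, 6 and 8, and no test of chromosomes was made. Of the 2308 CTCF siRNA TADs on the autosomes, 998 had no gained edge, 1057 had 1 and 253 had 2. The median length of those groups was 840, 760 and 840 kb.

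Gained boundaries lay somewhat closer to control boundaries than eligible bins did. The median distance to the nearest control boundary was 240 kb, with quartiles of 120 and 400 kb, against 280 kb for eligible bins, with quartiles of 160 and 480 kb. At the smallest distance the bin grid allows, 80 kb, there were 146 gained boundaries (14.3%), against 11.1% of eligible bins. Over 1000 kb from any control boundary were 32 (3.14%). Within the range of the eligible bins there were 28 of 1003 (2.79%), against 4.33% of eligible bins. Of the 32, lone edges made up 28. The nearest control boundary was a lost one for 602 of the 1019 (59.1%), and within the range of the eligible bins for 58.6%, against 46.2% of eligible bins. Lost and gained boundaries were both set by the CTCF siRNA list, whose boundaries are spaced apart. Part of this difference is therefore built into the rule, and eligible bins carry no such spacing. For 305 (29.9%) a lost control boundary within 200 kb and the gained boundary were each other's nearest, a count for which eligible bins give no counterpart.

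Most gained boundaries fell inside a control TAD. This held for 918 of 1019 (90.1%), while 85 lay in gaps between control TADs and 16 beyond the first or last control boundary of their chromosome. Within the range of the eligible bins the share was 91.5% (918 of 1003), against 96.3% of eligible bins. Of those inside, 54.7% (51.5 to 57.9%) lay between 25% and 75% of the TAD's length, against 58.8% of eligible bins. Joined and lone boundaries differed in this placement. The share in that central stretch was 60.7% for joined boundaries (56.4 to 64.9%) and 47.2% for lone edges (42.4 to 52.0%).

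**Figure D1:**
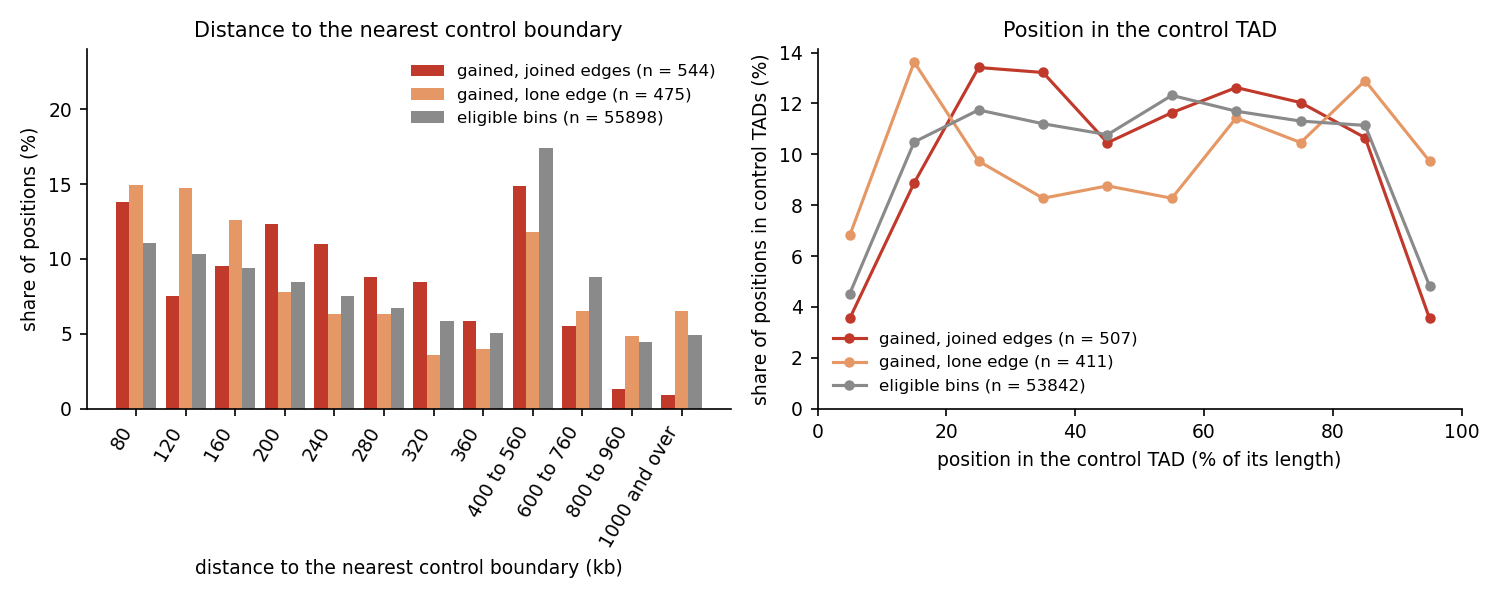
Left, bars give the share of gained boundaries and of eligible bins at each distance (kb) to the nearest control boundary; right, the share by relative position (%) in the control TAD that holds them. In the first and last 10% of the TAD lay 3.55% and 3.55% of joined boundaries and 6.81% and 9.73% of lone edges.

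Long control TADs held gained boundaries more often than short ones, which the rule favours, since a gained boundary must lie over 40 kb from both edges and short TADs have few such bins. Of the 2763 control TADs, 760 (27.5%) held at least 1, of which 627 held 1, 111 held 2 and 22 held 3 or more, with 5 the most. The share rose from 6.14% of TADs up to 400 kb (32 of 521) to 52.3% of TADs over 1.5 Mb (195 of 373). Per Mb of TAD there were 0.199 gained boundaries in TADs up to 400 kb, 0.361 at 440 to 800 kb, 0.425 at 840 kb to 1.5 Mb and 0.343 above. Per 100 eligible bins inside such TADs the numbers were closer, at 1.28, 1.80, 1.91 and 1.47. On either side of a gained boundary both neighbouring control boundaries had been lost in 297 cases (29.1%) and both were maintained in 227 (22.3%). Within the range of the eligible bins the shares were 29.6% and 22.6% of 1003, against 21.5% and 29.3% of eligible bins. This difference too is partly built in, since lost, maintained and gained were all set by the CTCF siRNA list.

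Insulation was compared next. The insulation value of a bin compares contacts that cross it, between the 400 kb on each side, with contacts inside those flanks, each as a ratio to the number expected at that distance, on a log2 scale. Lower values mean fewer contacts across relative to those inside the flanks. The median at gained boundaries was -0.35 in control (95% interval over positions -0.38 to -0.31) and -0.43 in CTCF siRNA (-0.47 to -0.39), and the median change was -0.13 (-0.17 to -0.10, n = 897). Eligible bins had medians of 0.12 and 0.13 and a median change of -0.03, and those at least 200 kb from any boundary a median change of -0.07. With flanks of 800 kb in place of 400 kb the median change at gained boundaries was -0.039, against 0.01 at eligible bins and -0.059 at those far from any boundary, and with the lowest value over the bin and its neighbours -0.076. The value fell at 580 gained boundaries (64.7%), against 53.5% of eligible bins, and single changes ran from -1.24 to 1.30. It fell by over 0.5 at 152 (16.9%), against 4.23% of eligible bins.

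The fall was seen mainly at joined boundaries. Their median went from -0.39 to -0.61, a median change of -0.24 (-0.28 to -0.18, n = 478), and 71.3% fell. Lone edges had medians of -0.26 and -0.28, with a median change of -0.06 (-0.09 to -0.02, n = 419), and 57.0% fell. A fall of over 0.5 was found at 117 joined boundaries (24.5%) and at 35 lone edges (8.35%). Joined and lone edges were told apart by the CTCF siRNA TAD list. A lower CTCF siRNA value at joined ones is therefore partly built in. Maintained boundaries went the other way, from -1.02 to -0.68, and lost ones from -0.76 to -0.12. The CTCF siRNA median of gained joined boundaries lay near that of all maintained boundaries in the same map. It was above the control medians of both maintained and lost ones. The maintained and lost sets mix joined and lone edges, and all gained boundaries together had -0.43 in CTCF siRNA.

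**Figure D2:**
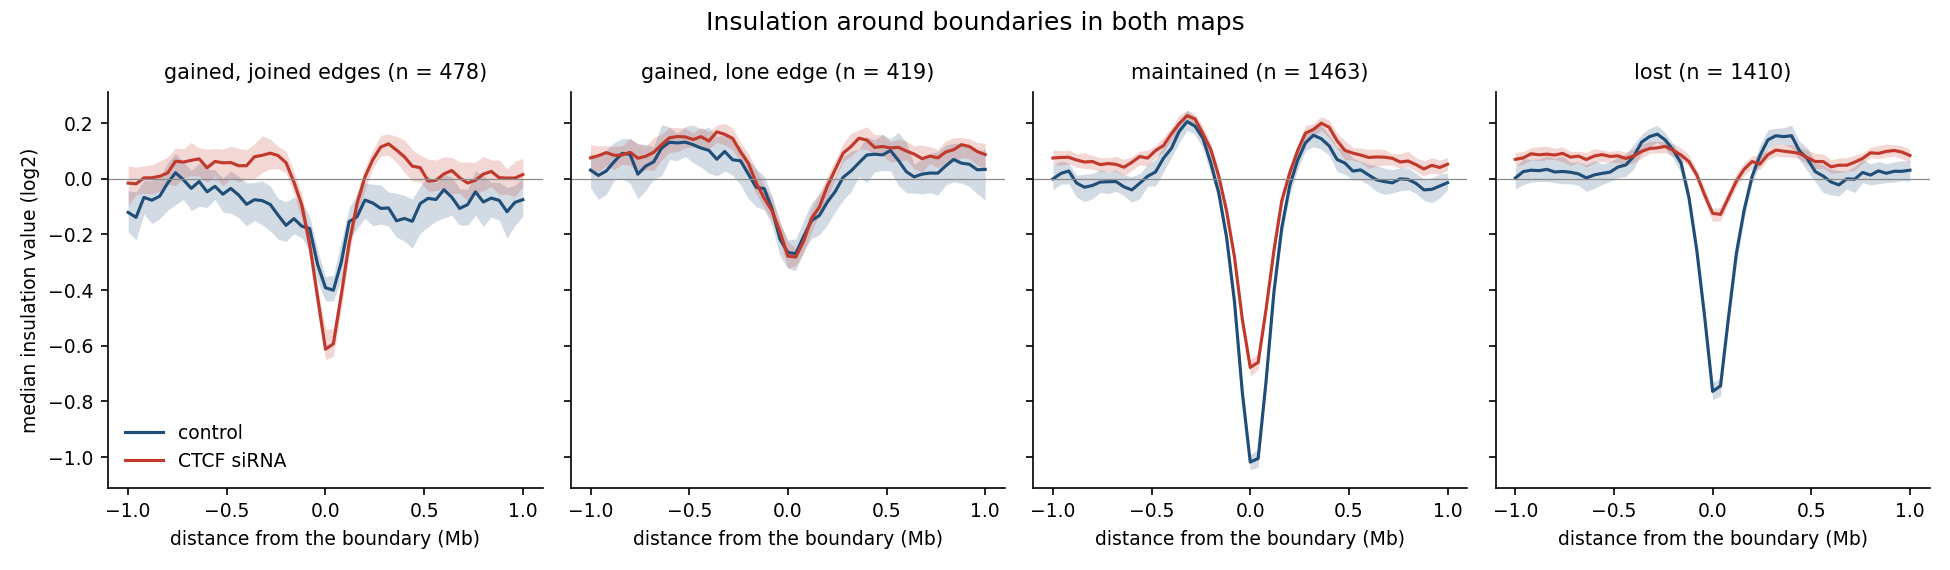
Median insulation value (log2) by distance from the boundary (Mb) in the control and CTCF siRNA maps, with bands for the 95% interval over positions. A dip of -0.39 was present in control at the joined gained boundaries and deepened to -0.61, the dip at lone edges was alike in both maps, and maintained and lost boundaries became shallower.

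The dip in the profile covered the boundary's own bin and the next bin downstream to about the same depth, with CTCF siRNA medians of -0.61 and -0.59 at joined boundaries. Around joined boundaries the flanks also differed between the maps. At 400 kb upstream the median was -0.09 in control and 0.05 in CTCF siRNA, and at 400 kb downstream -0.14 and 0.08. Higher values in CTCF siRNA at 400 kb downstream were also found for lone edges, 0.09 and 0.14, and for maintained boundaries, 0.12 and 0.18, while lost boundaries went the other way there, 0.15 and 0.10. At 400 kb upstream the values were 0.10 and 0.14 for lone edges, 0.11 and 0.16 for maintained boundaries, and 0.08 in both maps for lost ones.

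Whether the fall came from contacts across the boundary or within its flanks depended on how the counts were scaled. In the counts, observed over expected contacts across joined boundaries changed by a median of 0.04 on the log2 scale and those within the flanks by 0.26. At lone edges both changed together, by -0.29 and -0.23. After iterative balancing, which gives every bin the same total, contacts across joined boundaries changed by -0.23 and those within the flanks by 0.04, while at lone edges the values were -0.06 and 0.02. The CTCF siRNA map held 4.94 times as many contacts as the control map in the bins of joined boundaries, 3.09 times at lone edges and 3.54 times at eligible bins, at the median. The insulation value is a ratio of the 2 terms and moved less, with balanced medians of -0.35 and -0.59 at joined boundaries and -0.18 and -0.23 at lone edges.

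**Figure D3:**
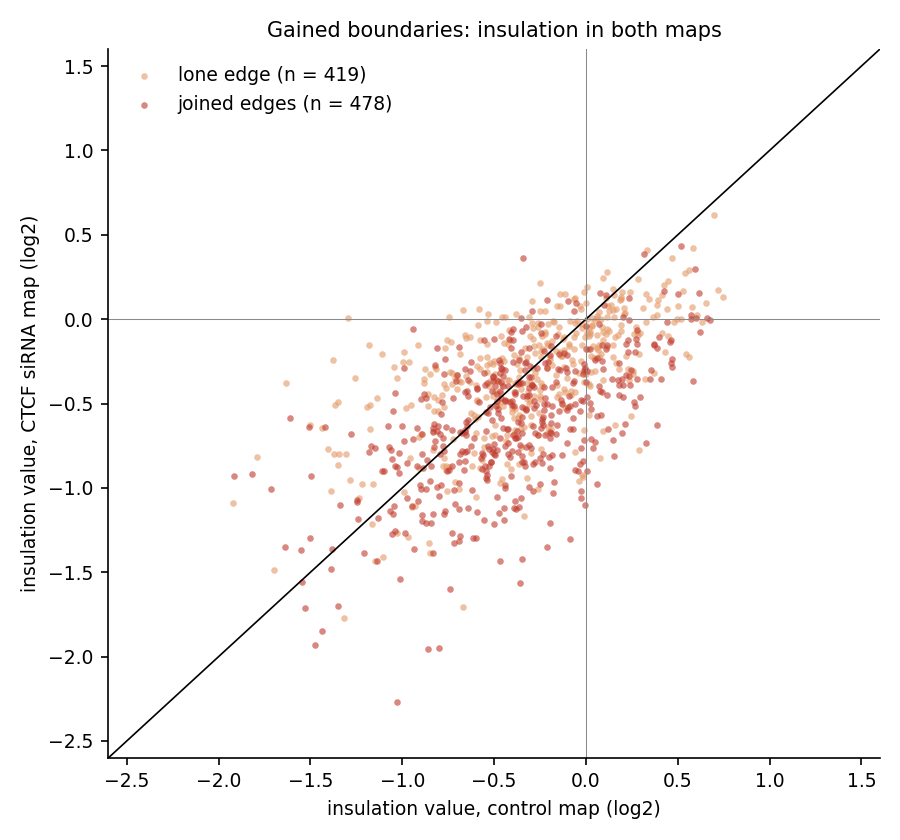
Each point is a gained boundary with an insulation value, placed by its value (log2) in the control map and in the CTCF siRNA map; the diagonal marks equal values. Most joined boundaries lie below the diagonal, lone edges scatter on both sides, and most points of either kind are below 0 in control.

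Weak insulation was already present at many of these positions in control. Of the 897, 541 (60.3%) had a control value below the lower quartile of eligible bins (-0.23), and 246 (27.4%) lay below their 10th percentile (-0.61). A local minimum of control insulation, the lowest bin over 5 bins to each side, lay within 1 bin of 238 gained boundaries (26.5%, 23.7 to 29.5%), against 12.2% of eligible bins. In CTCF siRNA the count was 515 (57.4%), against 14.3%. Minima in both maps were found at 196 (21.9%), in CTCF siRNA alone at 319 (35.6%) and in neither at 340 (37.9%). Where control already had a minimum the median value was -0.55 and the median change 0.05 (n = 238), and where it had none they were -0.25 and -0.20 (n = 659). This split uses the control value, which is also a term of the change, so a smaller fall or a rise at control minima is partly built into it.

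How often a control minimum was found depended on the distance to the nearest control boundary, and the eligible bins at the same distance differed as well. At 80 kb, within the slope of the neighbouring boundary, 21.1% of gained boundaries and 22.4% of eligible bins were at a control minimum. At 120 to 200 kb the shares were 11.1% and 3.33%, at 240 to 400 kb 31.3% and 9.43%, and above 400 kb 46.9% and 19.3%. Median insulation changes of the gained boundaries were -0.00 at 80 kb, -0.14 at 120 to 200 kb, -0.23 at 240 to 400 kb and -0.11 above. The eligible bins at those distances had changes of 0.22, 0.02, -0.09 and -0.07.

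Directionality, the log2 of downstream over upstream contacts within 2 Mb, is the kind of measure from which the authors called TADs, so in CTCF siRNA it restates how the boundaries were chosen. A change from upstream to downstream bias in that map was found at 584 of 864 gained boundaries with a value (67.6%), against 12.6% of eligible bins, and at 88.9% of joined boundaries. In control it was found at 290 (33.6%), against 11.0% of eligible bins. The control shares were 40.2% at joined boundaries and 25.8% at lone edges. In CTCF siRNA the share at lone edges was 42.4%, and a lone edge by definition has a TAD on 1 side only.

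At the limit of the rule the values did not fall into separate groups. Boundaries exactly 40 kb from a control boundary, which counted as maintained, numbered 438 and had median insulation of -0.88 in control and -0.64 in CTCF siRNA. The 146 at exactly 80 kb had -0.66 and -0.64. Named by most contacts expected across, the 2 shared boundaries at 40 kb were chr5:18320001-18360000, with no protein-coding gene in its window, with -1.63 in control and -0.60 in CTCF siRNA, and chr5:53720001-53760000 at HSPB3, a small heat shock protein, with -0.51 and -0.90. Of those gained at 80 kb, chr5:82960001-83000000 at HAPLN1, a cartilage matrix link protein, had -1.38 and -0.24. Another boundary named by the same rule is not reported here, so no tally of rises and falls is drawn.

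Gene starts were more frequent near gained boundaries than in eligible bins, and among gained boundaries more frequent near joined ones than near lone edges. A protein-coding gene started within 40 kb of 580 of 1014 gained boundaries with known sequence (57.2%, 54.1 to 60.2%), against 29.1% of eligible bins. The share was 73.9% at joined boundaries (402 of 544) and 37.9% at lone edges (178 of 470). It was 67.1% at maintained and 48.8% at lost boundaries, sets that mix joined and lone edges. At least 3 starts were found at 23.5% of joined boundaries, 7.87% of lone edges and 4.25% of eligible bins. The median distance to the nearest protein-coding start was 19.8 kb for joined boundaries, 74.9 kb for lone edges and 103 kb for eligible bins. Because base composition differed between these sets, the shares were also read within tertiles of GC content.

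Within each GC tertile gained boundaries held a start more often than eligible bins. The shares were 17.1% and 9.68% in the lowest tertile (up to 37.8% GC), 57.7% and 27.8% in the middle one, and 80.5% and 49.9% in the highest (from 41.8%). In the lowest tertile 38.1% of the 63 joined boundaries and 10.5% of the 200 lone edges held a start. In the highest the shares were 82.5% of 315 and 75.6% of 131. The median insulation change of joined boundaries was -0.37, -0.24 and -0.20 in the lowest, middle and highest tertile, and that of lone edges -0.06, -0.03 and -0.10. The larger fall at joined boundaries was found in every tertile. Joined and lone edges come from the CTCF siRNA TAD list, so part of this difference is built into the split.

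**Figure D4:**
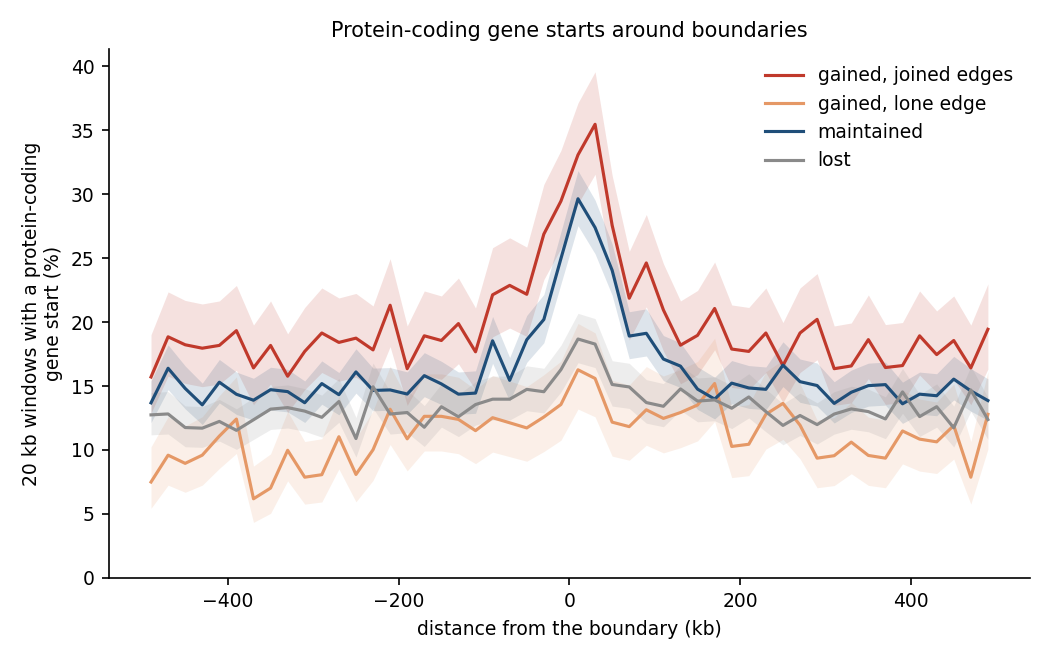
Share of 20 kb windows that hold a protein-coding gene start, by distance from the boundary (kb), with bands for the Wilson 95% interval. Joined gained boundaries have 33.1% just downstream of the boundary and 35.5% at 20 to 40 kb. Just upstream they have 29.5%, and 26.9% at 20 to 40 kb upstream. In the windows farthest upstream and downstream they have 15.7% and 19.4%. Just downstream, gained lone edges have 16.3%, and maintained and lost boundaries, which mix joined and lone edges, have 29.7% and 18.7%.

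Other sequence measures differed less. Median GC content over 80 kb was 41.1% at gained boundaries, 42.6% at joined ones, 38.5% at lone edges and 39.6% at eligible bins. The absolute difference in GC between the 400 kb on each side had a median of 1.53 percentage points, against 1.26 at eligible bins. There was a median of 19 BglII sites (AGATCT) in the 80 kb, against 22. The word CCNNNAGGNGGC, the core of the CTCF motif searched on both strands, was found within 40 kb of 792 (78.1%), against 70.3% of eligible bins and 81.2% of maintained boundaries. Within GC tertiles the shares at gained boundaries and eligible bins were 55.5% and 49.3%, 77.1% and 70.2%, and 92.2% and 91.5%. Such a match is a description of the letters, not a site of binding.

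The 8 gained boundaries with the largest fall were all joined edges, as were 478 of the 897 with an insulation value. Joined edges were told apart by the CTCF siRNA TAD list, so their place among the largest falls is partly built in. Of the 8, 7 held a protein-coding gene start, against 73.9% of all joined gained boundaries. For 3 of the 8 the core word nearest to the boundary is shown with 14 bases on each side, on its own strand of GRCh37, with the word in capitals.
SETD6: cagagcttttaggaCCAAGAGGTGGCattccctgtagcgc
MASTL: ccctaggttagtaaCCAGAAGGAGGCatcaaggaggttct
CYP51A1: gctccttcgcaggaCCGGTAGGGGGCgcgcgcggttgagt
These lie at chr16:58572726-58572765 within CNOT1, chr10:27416633-27416672 within YME1L1 and chr7:91808345-91808384 within LRRD1, all on the plus strand. Their distances from the midpoint of the boundary were 7.3, 3.4 and 28.4 kb. The windows at VPS13A, COQ10B and AGBL2 held no such word.

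The largest fall was on chromosome 9 within VPS13A, which encodes a lipid transfer protein, at chr9:79960001-80000000. The control map held 228 contacts across it where 425 were expected, and the CTCF siRNA map 347 where 2007 were expected. Insulation went from -1.03 to -2.27, a change of -1.24 ± 0.13 (counting SD), and this was also the lowest CTCF siRNA value of any gained boundary that could be named. The window had the lowest GC content of the 8, 34.7%, and a contact ratio between the maps of 1.45. It was the only one of the 8 with no gene start.

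At chr16:58560001-58600000, by the start of the lysine methyltransferase gene SETD6 and within CNOT1, the scaffold of the CCR4-NOT deadenylase, 263 of 341 expected contacts crossed in control and 750 of 2042 in CTCF siRNA. Insulation went from -0.09 to -1.30. At chr10:27400001-27440000, where MASTL, the Greatwall kinase of mitosis, YME1L1, a mitochondrial protease, and ANKRD26 start, 231 of 406 and 370 of 1979 crossed, and the value went from -0.36 to -1.56. In both places the share of the expected contacts that crossed was lower in CTCF siRNA than in control.

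At chr14:58720001-58760000, where ARMH4, ARID4A and the proteasome subunit gene PSMA3 start, 181 of 403 and 362 of 1830 expected contacts crossed, and insulation went from -0.80 to -1.95. At chr2:198320001-198360000, where COQ10B and HSPE1 start and the body of HSPD1 reaches into the window (HSPE1 and HSPD1 encode the mitochondrial chaperonin), 246 of 354 and 444 of 1415 crossed, and it went from -0.21 to -1.35. At chr11:47720001-47760000, at the start of AGBL2, a tubulin carboxypeptidase gene, and within FNBP4, 235 of 430 and 794 of 2012 crossed, and it went from -0.86 to -1.95. All 3 had a lost control boundary as their nearest, at 160, 80 and 120 kb.

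At chr7:91760001-91800000, where CYP51A1, a demethylase of cholesterol synthesis, and LRRD1 start, 333 of 385 and 500 of 1623 crossed, and insulation went from -0.01 to -1.10. It lay 400 kb from the nearest control boundary, inside a control TAD of 1.52 Mb, at 73.7% of its length. The counting SD of the change was 0.11 to 0.14 at the 7 boundaries described.

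Some gained boundaries were strongly insulated in control and became weaker. The 4 with the lowest control values were a lone end at KRTAP5-11, a hair keratin-associated protein gene (chr11:71320001-71360000), a joined boundary at ALG10, a glucosyltransferase of N-glycan assembly (chr12:34160001-34200000), a joined boundary at OSBPL11, an oxysterol-binding protein gene (chr3:125280001-125320000), and a lone start at the defensin gene DEFB108B (chr11:71520001-71560000). Their control values were -1.92, -1.91, -1.82 and -1.79. In CTCF siRNA they were -1.09, -0.93, -0.92 and -0.82, so all 4 rose, as a choice by the control value partly builds in. In control 106, 88, 64 and 130 contacts crossed them, and the contact ratios between the maps were 8.99, 3.40, 4.86 and 6.85. Both chromosome 11 positions lie on either side of the same lost control boundary, at 120 and 80 kb. That boundary is within the 400 kb flanks of both, so their control values are not separate from it. The fourth lowest CTCF siRNA value belonged to a joined boundary within PRKDC, the DNA-dependent protein kinase gene, on chromosome 8, with -1.47 in control and -1.93 in CTCF siRNA.

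**Figure D5:**
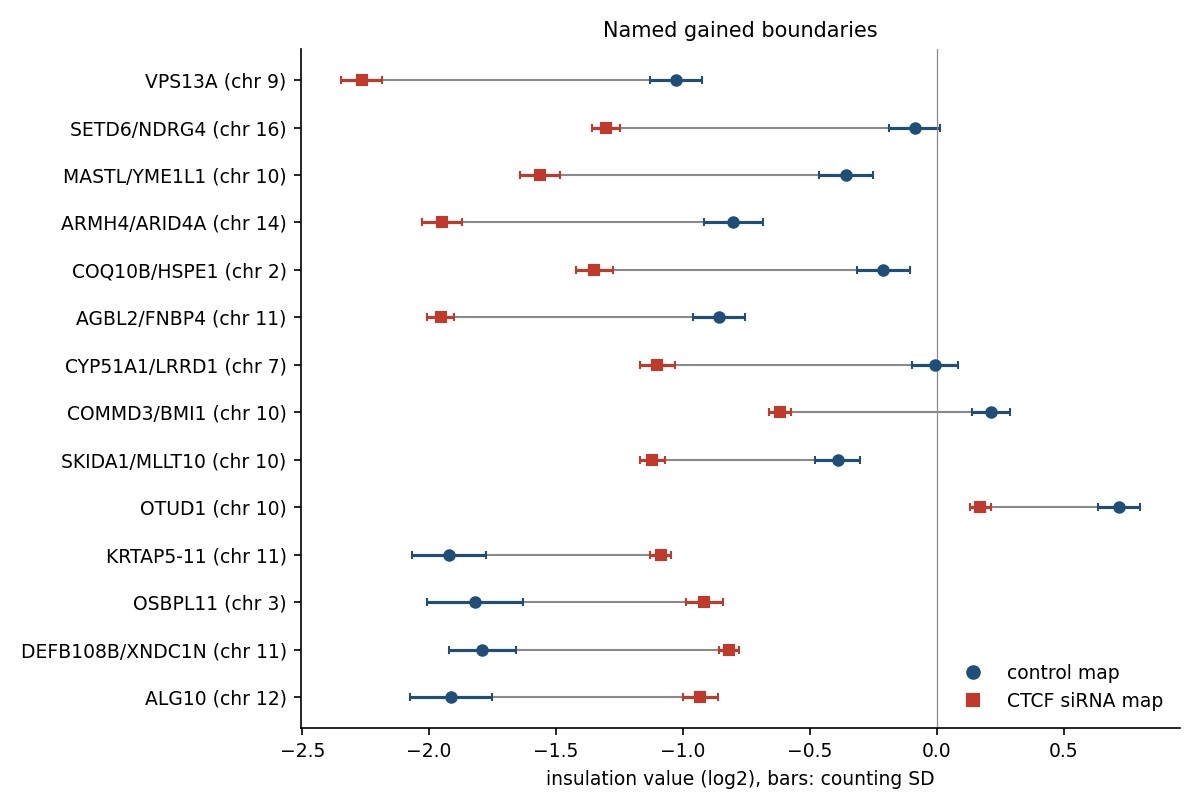
Insulation value (log2) of named gained boundaries in the control map (circles) and the CTCF siRNA map (squares), with bars for the counting SD. The 7 largest falls and the 3 boundaries of the chromosome 10 region moved to lower values, and the 4 boundaries with the lowest control values moved up.

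The gained boundaries farthest from any control boundary had values between -0.52 and -0.13 in both maps. Among those with an insulation value the farthest was a joined boundary at chr4:61040001-61080000, 2520 kb from the nearest control boundary and at 55.9% of a control TAD of 5.72 Mb. Its value went from -0.13 to -0.50. A lone end at chr21:24120001-24160000 and a lone start at chr21:24960001-25000000, the edges of 1 gap between CTCF siRNA TADs and each 1800 kb away, had -0.15 and -0.44, and -0.23 and -0.17. A lone start at chr5:84560001-84600000, 1680 kb away and near the middle of a control TAD of 3.40 Mb, had -0.52 and -0.36. None of these windows held a protein-coding gene.

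The other gained boundaries nearest to the middle of long control TADs, those over 1.5 Mb, changed by 0.13 to 0.17, with counting SDs of 0.10 to 0.13. They were lone starts within FHIT, a large gene at a fragile site (chr3:60640001-60680000), with -0.01 in control and 0.16 in CTCF siRNA, and within SNTG1 on chromosome 8, with -0.22 and -0.09, and a joined boundary at TPX2, a spindle assembly factor, and BCL2L1, an inhibitor of cell death (chr20:30320001-30360000), with -1.25 and -1.08. The boundary at TPX2 was low in both maps, with the nearest control boundary 920 kb away.

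In a region of chromosome 10 that the study displays, 3 boundaries were gained. A joined boundary at SKIDA1 and MLLT10, a frequent fusion partner in leukaemia (chr10:21800001-21840000), went from -0.39 to -1.12. Another at COMMD3 and BMI1, a subunit of Polycomb repressive complex 1 (chr10:22560001-22600000), went from 0.21 to -0.62, with 498 of 406 expected contacts across in control and 1340 of 1979 in CTCF siRNA. A lone start at the deubiquitinase gene OTUD1 (chr10:23680001-23720000) went from 0.72 to 0.17. All 3 fell, and the value at OTUD1 remained above 0.

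Genes were then counted at gained boundaries, taking a gene as there when its body overlapped the 40 kb on either side. Of the 19229 autosomal protein-coding genes, 1936 (10.1%) were, and 1315 started there. At maintained boundaries there were 3425 genes (17.8%) and at lost ones 2143 (11.1%), counts that also follow the number of boundaries, 1019 gained, 1764 maintained and 1569 lost. Of 28 autosomal genes for architectural and cohesin-related proteins 5 were (7.88 to 35.6%, which holds the share of all genes), and 8 were at maintained boundaries (28.6%, against 17.8% of all genes). The 5 were NIPBL, the cohesin loader, BRD2, a bromodomain protein, CHD8, a chromatin remodeller, YY1, a zinc finger factor found at loops, and CTCFL, the germline paralogue of CTCF. Insulation changed by -0.06, -0.07, -0.37, 0.26 and 0.13 there, and CHD8 was the only joined boundary of these. CTCF itself was not at a gained boundary.

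Of 29 housekeeping genes 6 were at gained boundaries, all of them joined. At maintained boundaries there were 8 (27.6%, against 17.8% of all genes) and at lost ones none, against 11.1% of all genes. The Wilson interval of the share at gained boundaries (9.85 to 38.4%) holds the 10.1% of all genes. Besides HSPD1 and HSPE1, insulation changed by -0.04 at C1orf43, -0.31 at EEF1A1, a translation elongation factor, and -0.19 at VCP, an ATPase of protein turnover, while ACTB lay before the first position with contacts. Of 25 prostate cancer genes 7 were at maintained boundaries (28.0%, against 17.8% of all genes) and 3 at gained ones (4.17 to 30.0%, which holds the share of all genes), namely VPS13A, GRHL2, an epithelial transcription factor, with -0.32 in control and -0.53 in CTCF siRNA, and ERG, with -0.06 and -0.31. The gene lists were written with earlier results of these data known. VPS13A, HSPD1 and HSPE1 lie at the largest falls named above, so these counts are not independent of the data. None of 30 androgen-regulated genes, which include the kallikrein genes KLK2 and KLK3, was at a gained boundary, while 3 were at maintained and 4 at lost ones. With 30 genes, a share of up to 11.4% is allowed by the Wilson interval, which holds the 10.1% of all genes.

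Gene families sit in clusters, so their members share boundaries, and their shares are to be read beside the 10.1% of all genes. All 8 of 39 HOX genes counted were HOXC genes, from HOXC4 to HOXC13, at 1 joined boundary (chr12:54360001-54400000) whose value went from -0.18 to -0.52. Of 414 olfactory receptor genes 10 (2.42%, Wilson interval 1.32 to 4.39%) were at gained boundaries, of 503 ZNF genes 29 (5.77%, 4.04 to 8.16%), and of 66 histone genes 4 (2.38 to 14.6%), which share 1 lone start. At maintained boundaries there were 21 histone genes (31.8%, against 17.8% of all genes). Of 359 solute carrier genes 30 (8.36%, 5.92 to 11.7%) and of 57 cytochrome P450 genes 4 (2.76 to 16.7%) were counted. None of 55 keratin genes (up to 6.53%) and none of 15 kallikrein genes (up to 20.4%) was, and of 63 protocadherin genes only PCDH15 was (0.281 to 8.46%). The intervals of the histone, solute carrier, cytochrome P450 and kallikrein genes hold the share of all genes. They treat genes as independent, which clustered genes are not.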

How the data were processed

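Per the methods, the authors mapped the Hi-C reads to hg19 within NGSane and HiCUP, and the submitters' processing notes list FastQC 0.11.2, Bowtie 1.1.0, SAMtools 1.2 and Picard 1.121. The authors pooled replicates, counted contacts in 40 kb bins and called TADs from a directionality index by a hidden Markov model. For each condition 1 contact map and 1 TAD list were deposited, from 2 control and 4 CTCF siRNA libraries, and what separates the CTCF siRNA libraries numbered as further versions is not stated in the sources used here. The deposited contact values were read-pair counts multiplied by a factor per bin. Factors other than 1 were found only between positions 9400001 and 48120000, and a position was given the same factor on every chromosome. Factors were read at 847 positions of that range. Counts were recovered by division, and 99.925% of 7035563 values (control) and 99.992% of 17391184 (CTCF siRNA) came out whole (tolerance 0.0101 plus 0.05%), where evenly spread remainders would give 2.28% and 2.4%.

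Expected contacts were means per chromosome and distance over bins with at least 10% of the chromosome's median contacts in both maps, and 50% of bin pairs had to be usable. Shares carry Wilson 95% intervals and medians 95% order-statistic intervals, both over positions, which are not replicates of a condition. Counting SDs cover counting error only. Boundaries were named by rank (8 largest falls, 4 lowest values in each map, 4 farthest, 4 nearest the middle of long TADs, 2 on each side of the 40 kb limit, and those in the displayed region), with at least 50 contacts expected across. The members, gene lists and rules were chosen with earlier results of these data known. Genes came from the GENCODE annotation lifted to GRCh37. Scripts used Python 3.11.15, numpy 2.4.6, pandas 2.3.3 and scipy 1.17.1 and were tested on simulated maps. No p-value was computed. Some named boundaries and sequences are not reported here. Alternatives for joining, distance, TAD length, flank, balancing, depth and windows are given at the end. The alternative for depth covers insulation values only, not the TAD lists.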

Additional observations from a re-analysis of the deposited data

How the results depend on the processing

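Of 117 alternative values of results with a 95% interval, 64 stayed within it and 53 did not. The number of gained boundaries, 1019, ran from 731 with edges joined at up to 400 kb to 1457 where boundaries had to touch. Both alternatives of the rule for a shared boundary moved every placement value outside its interval. With only touching boundaries counted as shared, 52.4% were gained, at a median of 160 kb, with 85.2% inside a control TAD, 40.4% in its central stretch, 50.8% with a lost boundary as mutual nearest and 9.40% between 2 maintained boundaries. With sharing up to 80 kb these values were 31.4%, 280 kb, 93.2%, 60.8%, 20.2% and 29.3%, and the control insulation median was -0.30. With edges joined at up to 400 kb they were 29.5%, 280 kb, 95.1% and 61.6%, with 26.5% between 2 maintained boundaries. With midpoints in place of intervals 39.0% were gained, 51.3% were central and 19.0% lay between 2 maintained boundaries, and with TADs of at most 3 Mb 87.4% lay inside a control TAD.

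For insulation, a flank of 200 kb gave a CTCF siRNA median of -0.50, a change of -0.17, and minima at 36.1% in control and 64.1% in CTCF siRNA, against 18.8% and 20.8% of eligible bins. A flank of 800 kb gave -0.36, -0.039, 20.2% and 49.6%, with minima at 7.95% and 9.68% of eligible bins. With that flank the control median was also -0.36, so the medians no longer differed at 2 decimals, and the change at bins at least 200 kb from any boundary, -0.059, was larger than at gained boundaries. Balanced counts gave a control median of -0.29, a change of -0.17, CTCF siRNA minima at 62.1% and a control directionality change at 29.6%. The lowest value over the bin and its neighbours gave medians of -0.46 and -0.52 and a change of -0.076. The lowest GC tertile had a change of -0.087. Control minima were found at 35.7% over 3 bins to each side and at 14.8% over 10 bins, and a control directionality change over 1 Mb at 36.8%. In the bin of the boundary only, 39.1% held a gene start and 55.2% a core word, with a median of 9 BglII sites. Joined boundaries only, an alternative chosen after seeing the data like those on usable bins, the range with factors and balanced contacts across and within flanks, gave insulation of -0.39 and -0.61, a change of -0.24, CTCF siRNA minima at 68.8%, a control directionality change at 40.2%, gene starts at 73.9%, core words at 83.8%, a GC content of 42.6% and a GC step of 1.65 points. The cause of these shifts was not tested.

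Thinning the CTCF siRNA map cannot change control values, and the lowest value over neighbours gives no minimum. With 24.13% of its contacts kept, the CTCF siRNA median at gained boundaries was -0.438 and the median change -0.135. Minima in the thinned map were found at 54.3%. These values stayed within the intervals at full depth. The TAD lists were those made by the authors from the full maps. How many boundaries would be gained at equal depth was therefore not tested. No paired analysis was possible because each map and TAD list pools its libraries. Without maps of single replicates the spread between cultures is unknown, and depth leaves a counting SD of 0.11 to 0.14 on the largest changes.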
